A study of Mus musculus with 4 samples.

Results

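The 9 genes described here belong to the aryl hydrocarbon receptor pathway and to the handling of foreign compounds: Ahr, Arnt, Ahrr, Tiparp, Cyp1a1, Cyp1b1, Aldh3a1, Slco2a1 and Abcg2. They were taken by symbol, with every probe set to which the platform annotation gives only that symbol, which yielded 17 probe sets for 9 genes among 22690 probe sets and 12394 genes with a symbol on the array. RNA of NF639 cells, a mouse mammary tumour line from a tumour driven by ErbB2 (Her-2/neu), was measured on Affymetrix Mouse 430A 2.0 arrays. The control group is the original population (2 arrays), and the other is a pool of NF639 cells resistant to epigallocatechin gallate (EGCG), a catechin of green tea (2 arrays). The resistant cells are a pool and not a clone. The sources used here do not state how resistance was obtained or whether EGCG was present at harvest. The RNA came from separate experiments per the labels, so p-values rest on the spread between these arrays, with variance shared over probe sets. They do not cover the spread between separately derived resistant pools. With 2 arrays against 2, an exact permutation test of a single gene cannot go below p = 0.333, so tests come from a limma fit over all probe sets.

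The aryl hydrocarbon receptor (Ahr) waits in the cytosol bound to chaperones, and a planar ligand sends it to the nucleus, where it pairs with Arnt and binds a short DNA element. The pair switches on oxidases such as Cyp1a1 and Cyp1b1, and also Ahrr and Tiparp, which feed back to restrain the receptor. EGCG is itself a polyphenol that cells conjugate, and green tea catechins are known as antagonists of this receptor in cultured cells. Slco2a1 imports prostaglandins and belongs to the organic anion transporters, while Abcg2 exports drugs and conjugates.

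The core of the element bound by the receptor with Arnt is GCGTG. The table of promoters from RefSeq (GRCm38.p6) held 7 of the 9 genes, without Ahr and Aldh3a1. The 250 bases before the start site are shown for the pair of genes that differed most between the populations, Cyp1b1 and Slco2a1, and for 3 other genes known as direct targets of the receptor, with each GCGTG, on either strand (CACGC on the strand shown), in capitals.
Cyp1b1 (chr17:79715062-79715311, minus strand): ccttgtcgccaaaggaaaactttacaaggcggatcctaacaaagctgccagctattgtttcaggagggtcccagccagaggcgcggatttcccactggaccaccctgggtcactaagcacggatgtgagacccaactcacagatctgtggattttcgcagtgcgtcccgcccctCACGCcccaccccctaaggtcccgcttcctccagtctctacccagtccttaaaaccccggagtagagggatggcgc
Slco2a1 (chr9:103008237-103008486, plus strand): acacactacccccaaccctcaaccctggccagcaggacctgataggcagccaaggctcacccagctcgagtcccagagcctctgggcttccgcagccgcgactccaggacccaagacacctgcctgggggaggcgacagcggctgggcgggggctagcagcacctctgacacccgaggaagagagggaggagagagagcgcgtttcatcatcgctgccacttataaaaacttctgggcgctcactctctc
Cyp1a1 (chr9:57697363-57697612, plus strand): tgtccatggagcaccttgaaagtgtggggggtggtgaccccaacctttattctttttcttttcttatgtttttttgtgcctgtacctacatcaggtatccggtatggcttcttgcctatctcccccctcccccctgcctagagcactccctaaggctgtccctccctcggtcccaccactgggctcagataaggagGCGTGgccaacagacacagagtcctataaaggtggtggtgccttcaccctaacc
Ahrr (chr13:74292332-74292581, minus strand): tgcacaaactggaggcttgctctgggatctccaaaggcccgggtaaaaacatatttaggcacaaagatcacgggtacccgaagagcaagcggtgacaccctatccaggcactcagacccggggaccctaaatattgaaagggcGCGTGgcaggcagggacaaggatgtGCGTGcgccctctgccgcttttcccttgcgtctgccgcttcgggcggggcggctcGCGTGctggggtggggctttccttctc
Tiparp (chr3:65528197-65528446, plus strand): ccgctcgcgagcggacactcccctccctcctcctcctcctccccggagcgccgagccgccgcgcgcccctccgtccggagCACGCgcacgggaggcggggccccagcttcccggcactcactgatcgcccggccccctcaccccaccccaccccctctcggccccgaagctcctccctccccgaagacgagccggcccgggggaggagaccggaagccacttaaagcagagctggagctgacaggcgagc
This window held 1 match in Cyp1b1, on the other strand and beginning 76 bases before the start, 1 in Cyp1a1 (54 bases before), 3 in Ahrr (107, 82 and 27 bases before), 1 in Tiparp (170 bases before) and 0 in Slco2a1. Arnt held 1 match, and the 3 listed promoters of Abcg2 held 0. Of all 32851 promoter windows of this length, 28.2% held at least 1 match and 2.8% held 3 or more. A match describes letters in this window and not a bound site. Bases farther from the start were not searched, so a count of 0 covers this window only. The windows of Slco2a1 and Cyp1a1 lie inside their gene records, which begin at chr9:103007061 and chr9:57687928. The bases before those positions were not searched.

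Defining markers of mammary epithelium were dim on all arrays. Of 7 markers of mammary epithelium, only Erbb2 (signals 280.7 to 326.2) lay above the filter on dim probe sets, a mean signal of 51.9, and Krt8, Krt18, Krt7, Krt19, Epcam and Cdh1 lay between 1.4 and 62.9 on the 4 arrays. Of 7 mesenchymal markers 6 lay above the filter, and they differed between the populations in both directions: Vim, the mesenchymal filament gene, had a log2 fold change of -0.07 with signals of 15876 to 19936, while the collagen genes Col3a1 (1.99; limma, adjusted p = 0.0477) and Col1a1 (0.99; adjusted p = 0.317) were higher and the proteoglycan gene Dcn (-2.15; adjusted p = 0.451) was lower on both resistant arrays. Dcn differed more between the original arrays (729.1 and 136.7, a step of -2.39 on the log2 scale) than between the groups. On the resistant arrays it had 124.9 and 37.9. The part of the mesenchymal markers in the results was not tested. The call of Col3a1 ended in 5 alternative settings, at adjusted p = 0.05004 to 0.317. Summed leukocyte markers were 150.6 to 199.6 in the original and 186.9 to 218.9 in the resistant arrays, with Ptprc between 7.4 and 14.8. Of these markers Itgam, under the filter, was higher on both resistant arrays (13.1 and 19.8, against 2.2 and 2.6), and the others overlapped between the groups. Summed endothelial markers were 38.2 to 69.4 in the original and 31.8 to 47.9 in the resistant arrays. The median signal was 135.2 and 115.2 for the original population, and 128.6 and 114 for the resistant pool. All 14 probe sets of the spiked hybridisation controls BioB, BioC and BioD gave more signal on array 2 than on array 1, 1.39 to 2.36 times as much for original cells and 1.39 to 2.46 times for resistant cells, so each difference of a tested probe set of the 9 genes is also given within replicate number 1 and within number 2.

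Among the tested probe sets of the 9 genes, those of the oxidase gene Cyp1b1 (log2 fold changes of -1.57 and -1.09) and the transporter gene Slco2a1 (-0.84, -0.79 and -0.70) differed most, and Ahr itself (-0.68 and -0.29) was also lower on both resistant arrays. None of them passed the test over all probe sets. Tiparp and Aldh3a1 overlapped between the populations, and Ahrr and Cyp1a1 were too dim to test. After the filter 13 of the 17 probe sets, from 7 genes, could be tested. With limma and Benjamini-Hochberg adjustment 0 of the 13 passed at 0.05, where 0.228% of all 13576 tested probe sets did (31 probe sets). At an unadjusted p under 0.05 there were 4 of 13, both tested probe sets of Cyp1b1 and 2 of Slco2a1, against 7.51% of all tested. The 13 all had a log2 fold change below 0, against 50.5% of all tested, and in 9 of them both resistant arrays lay below both original arrays, against 18.4% of all tested. With the replicate number as a term of the fit, 4 of the 13 passed, the same probe sets of Cyp1b1 and Slco2a1, against 5.45% of all tested. That fit rests on 1 residual degree of freedom, and no label says that the number marks a batch. The probe sets of 1 gene measure the same RNA and are not independent. The 9 genes were also chosen with earlier results of these data known, so these shares describe them and are not a test. By gene, taking the brightest tested probe set, the median log2 fold change was -0.30 over 7 genes and 0.02 over all 7514 genes tested. A lower signal in a population cannot be told apart from fewer cells that express the gene.

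**Figure D1:**
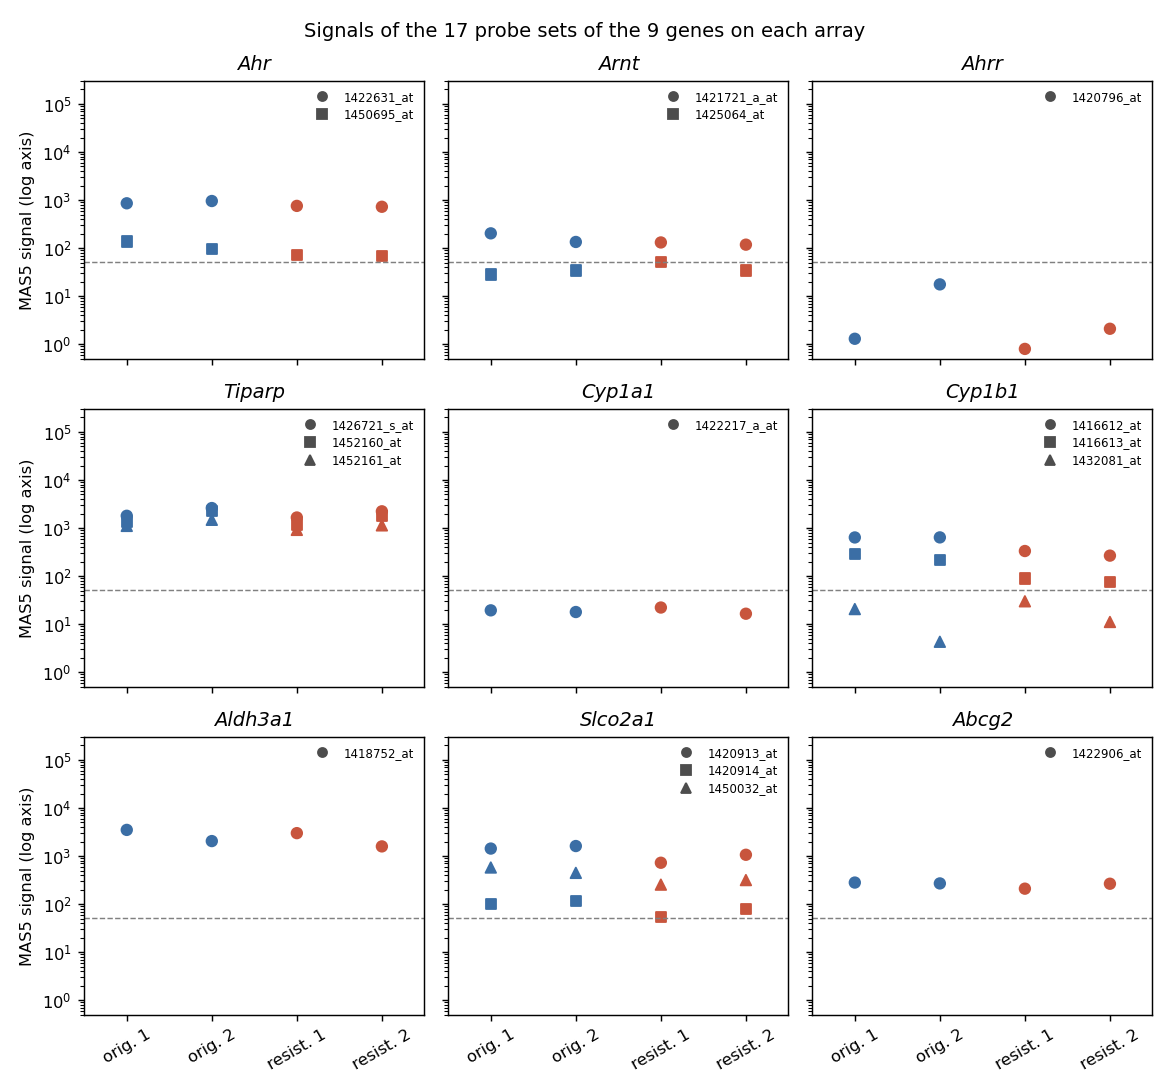
MAS5 signal (log axis) of each of the 17 probe sets on the 4 arrays, with the original population in blue, the resistant pool in red, a marker shape for each probe set and a dashed line at the filter's mean signal of 51.9. Both tested probe sets of Cyp1b1 and the 3 of Slco2a1 sit lower on both resistant arrays, while Tiparp overlaps between the groups and Ahrr and Cyp1a1 lie under the line.

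Ahr, the ligand-bound transcription factor, had signals of 857.4 and 955.9 in original cells and 757 and 725.6 in resistant cells by its brighter probe set, 1422631_at. The groups did not overlap, and the resistant mean was 81.7% of the original mean. The log2 fold change was -0.29 ± 0.181 (SE), with a 95% confidence interval from -0.69 to 0.11 (limma, adjusted p = 0.818). The other probe set, 1450695_at, had 139 and 95.4 in original cells and 72.3 and 69.3 in resistant cells. It too showed no overlap, with a log2 fold change of -0.68 ± 0.364 (SE; 95% confidence interval -1.49 to 0.13; limma, adjusted p = 0.748). Within replicate numbers 1 and 2 the differences were -0.18 and -0.40 for the brighter probe set and -0.92 and -0.45 for the dimmer one. The intervals allow a larger difference than the one seen, and also none.

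Arnt, the nuclear partner that Ahr needs to bind DNA, had signals of 203.1 and 134.4 in original cells and 131.3 and 118.1 in resistant cells by probe set 1421721_a_at. The second original array and the first resistant one differed by 3.1 signal units, so the groups were barely apart. Its log2 fold change was -0.40 ± 0.317 (SE; 95% confidence interval -1.11 to 0.30; limma, adjusted p = 0.877), with -0.62 and -0.18 within the replicate numbers. A second probe set of Arnt, 1425064_at, was under the filter, with 28.6 and 34.1 in original cells and 51 and 34.2 in resistant cells. At this signal no direction is read from it. The difference of 1421721_a_at rested largely on the first original array, at -0.11 without it and -0.69 without the second original array.

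Ahrr, the repressor that competes with Ahr for Arnt, was near the bottom of the scale on every array. Its signals were 1.3 and 17.6 in original cells and 0.8 and 2.1 in resistant cells, under the filter, and the groups overlapped. No fold change is given for signals of this size.

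Tiparp, an ADP-ribosyltransferase induced by the receptor and acting back on it, was bright on all arrays. Its probe set 1426721_s_at, of a kind that the array design marks as shared between related transcripts, had 1800.4 and 2607.2 in original cells and 1658.5 and 2231.4 in resistant cells. Probe set 1452160_at had 1382.7 and 2281.2, and 1180.1 and 1796.7. Probe set 1452161_at had 1107.6 and 1483.5, and 915.3 and 1137. In all 3 probe sets the groups overlapped, and in both groups the array numbered 2 was the brighter one. The step from array 1 to array 2, 0.42 to 0.72 on the log2 scale in the original population and 0.31 to 0.61 in the resistant pool, exceeded the difference between the groups, except for 1452161_at in the resistant pool (0.31, against a difference of -0.33). Log2 fold changes ran from -0.33 ± 0.205 (SE) for 1452161_at (95% confidence interval -0.79 to 0.13; limma, adjusted p = 0.816) to -0.17 ± 0.221 (SE) for 1426721_s_at. Within a replicate number each resistant array was the lower one, with differences of -0.28 to -0.12 in number 1 and -0.38 to -0.23 in number 2.

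Cyp1b1 encodes the cytochrome P450 that hydroxylates oestrogens and polycyclic hydrocarbons, the form typical of tissues outside the liver. Probe set 1416612_at had signals of 637.5 and 639.4 in original cells and 332.8 and 266.9 in resistant cells. Both resistant arrays were far below both original ones, and the mean went from 638.7 ± 2.05 to 299.7 ± 46.3 (SD, n = 2 per group), or 46.9% of the original mean. The log2 fold change was -1.09 ± 0.214 (SE), with a 95% confidence interval from -1.57 to -0.62 and an unadjusted p in limma of 0.00044, which became 0.109 after adjustment over all probe sets tested. Of all tested probe sets, 0.759% had a log2 fold change this low or lower.

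The dimmer probe set of Cyp1b1, 1416613_at, had 290.4 and 215.6 in original cells and 90 and 75.5 in resistant cells. Its resistant mean was 32.7% of the original mean, and the groups were again well apart. The log2 fold change was -1.57 ± 0.307 (SE; 95% confidence interval -2.25 to -0.89), with an unadjusted p of 0.000442 and an adjusted p of 0.109 in limma. Within the replicate numbers the differences were -0.93 and -1.25 for 1416612_at and -1.66 and -1.48 for 1416613_at. The remaining probe set, 1432081_at, was under the filter, with 20.6 and 4.3 in original cells and 29.9 and 11.1 in resistant cells, and overlapped between the groups. With each array left out in turn, the log2 fold change ran from -1.25 to -0.94 for 1416612_at and from -1.78 to -1.36 for 1416613_at.

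Cyp1a1, the hydrocarbon hydroxylase that is the classical readout of receptor activity, was dim in both populations. Its signals were 19.4 and 17.9 in original cells and 22.2 and 16.5 in resistant cells, all under the filter and overlapping between the groups. A difference in Cyp1a1 was not measurable at this signal.

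Aldh3a1, an aldehyde dehydrogenase that the receptor induces in some tissues, was bright, with 3498.6 and 2047.9 in original cells and 2996.6 and 1587.4 in resistant cells. The groups overlapped, and in both the array numbered 1 was the brighter one, the opposite of Tiparp. The step from array 1 to array 2 was -0.77 on the log2 scale in the original and -0.91 in the resistant group. The log2 fold change between the groups was -0.30 ± 0.309 (SE; 95% confidence interval -0.98 to 0.39; limma, adjusted p = 0.923), with -0.22 and -0.37 within the replicate numbers.

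**Figure D2:**
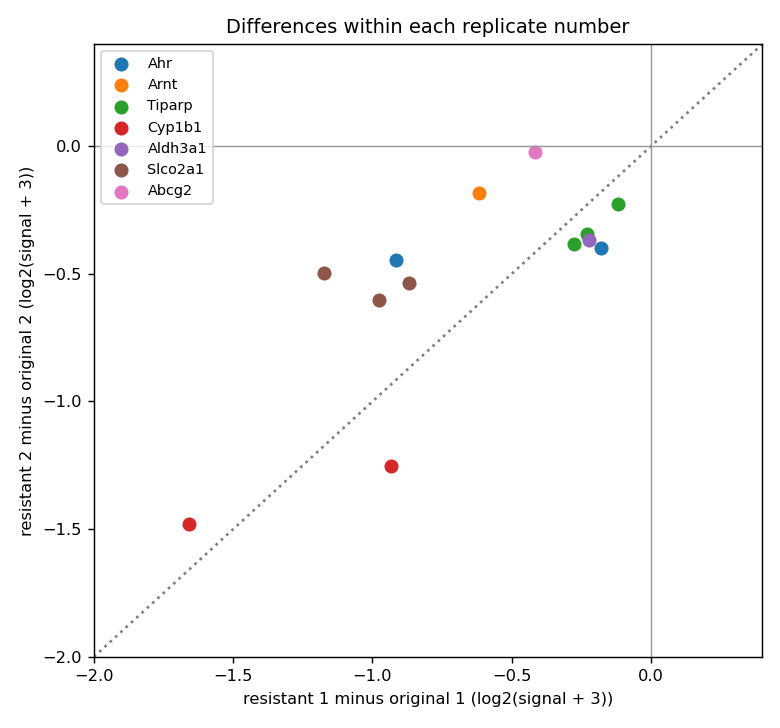
Difference in log2(signal + 3) between the resistant and the original array numbered 1 (horizontal) and between those numbered 2 (vertical), with 1 point for each of the 13 tested probe sets coloured by gene and a dotted line of equal differences. All 13 points lie below 0 on both axes, with those of Cyp1b1 farthest out at -0.93 and -1.25, and -1.66 and -1.48.

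All 13 tested probe sets were lower within both replicate numbers, as the plot of differences within each number shows, against 29.9% of all tested probe sets. Probe sets of Tiparp and Aldh3a1, whose groups overlapped over the 4 arrays, are among them. The choice of genes with earlier results known limits this comparison too.

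Slco2a1, the prostaglandin transporter, was lower on both resistant arrays in each of its 3 probe sets. Its brightest probe set, 1420913_at, had 1430.6 and 1614.9 in original cells and 725.1 and 1062.4 in resistant cells. The mean went from 1523 ± 132 to 893.5 ± 239 (SD, n = 2 per group), which is 58.6% of the original. The log2 fold change was -0.79 ± 0.212 (SE; 95% confidence interval -1.26 to -0.32), with an unadjusted p of 0.00379 and an adjusted p of 0.293 in limma.

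Probe set 1450032_at of Slco2a1 had 576.9 and 446.1 in original cells and 253.9 and 315.9 in resistant cells, a log2 fold change of -0.84 ± 0.236 (SE; 95% confidence interval -1.36 to -0.31; limma, adjusted p = 0.328). The dimmest, 1420914_at, had 100.9 and 116.5, and 53.9 and 79.5, with -0.70 ± 0.376 (SE; limma, adjusted p = 0.748). The 3 fold changes thus lay within 0.13 of each other although the signals of the probe sets differed widely. The difference was larger within replicate number 1 (-0.98, -1.17 and -0.87 for 1420913_at, 1450032_at and 1420914_at) than within number 2 (-0.60, -0.50 and -0.54). With each array left out in turn, the log2 fold change of 1420913_at ran from -1.07 to -0.52.

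Abcg2, the breast cancer resistance protein that pumps drugs and sulphate conjugates out of cells, had signals of 280.6 and 269.3 in original cells and 209.4 and 265.3 in resistant cells. The second resistant array lay 4 signal units under the lower original one, so the groups were barely apart. The log2 fold change was -0.22 ± 0.248 (SE; 95% confidence interval -0.77 to 0.33; limma, adjusted p = 0.936). Nearly all of it came from replicate number 1 (-0.42, against -0.02 in number 2).

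**Figure D3:**
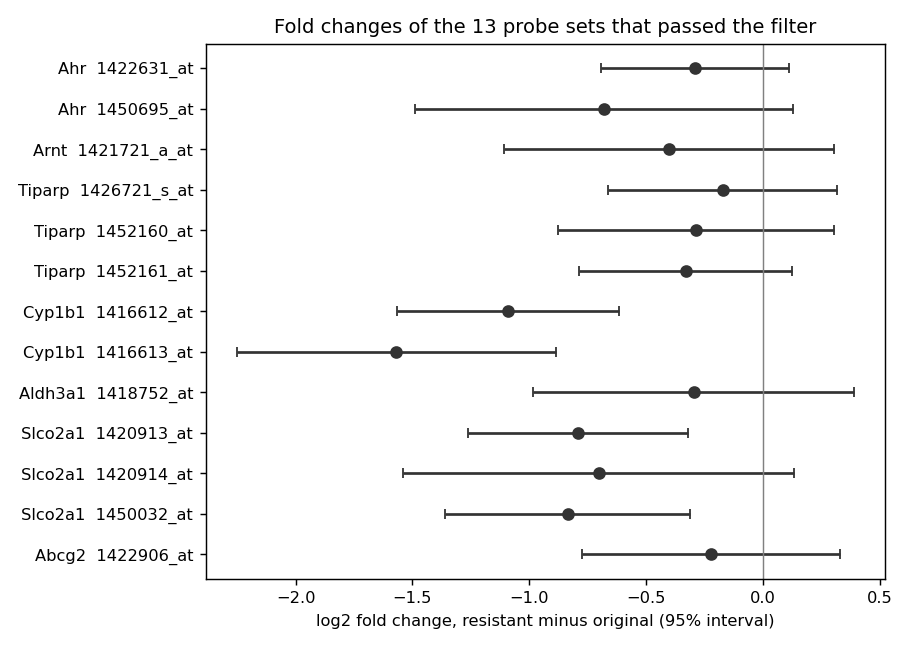
Log2 fold change (resistant minus original, on log2(signal + 3)) of each of the 13 tested probe sets, with points for the limma estimate and bars for its 95% confidence interval. The intervals of both probe sets of Cyp1b1 (-1.57 to -0.62 and -2.25 to -0.89) and of 2 probe sets of Slco2a1 lie below 0, and the other 9 cross it.

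Other genes of the pathway were taken from 5 lists: the receptor complex and its coregulators, other genes the receptor induces, conjugating enzymes, exporters of the ABC family and uptake transporters of the SLCO family. Of their 45 genes, 35 had a probe set of their own and 20 could be tested. In limma 1 of the 20 passed, lower, and 0 passed higher, where 0.228% of all tested probe sets passed. Of the 20, 7 had a log2 fold change below 0, against 47.3% of all genes tested. Their median was 0.11, against 0.02 over all genes tested. These lists too were chosen with earlier results of these data known.

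The 1 that passed was Abcb1b, a mouse multidrug resistance pump (P-glycoprotein). It fell from 166.7 and 151.3 in original cells to 14.9 and 2.2 in resistant cells. The filter on the mean signal kept Abcb1b through the original arrays alone (mean 159.1), as the resistant mean of 8.5 lay under the filter. Both resistant signals were close to the floor, so the size of the fall is poorly fixed: its log2 fold change was -4.07 ± 0.64 (SE; limma, adjusted p = 0.0447) with the pseudocount of 3 and -1.62 with a pseudocount of 64. The call ended with a pseudocount of 1 (adjusted p = 0.056), without a filter (0.208), with quantile normalisation (0.146) and without a variance trend (0.139), and the gene was not tested when the filter used the mean of log2 signals or the 60th percentile. Within the replicate numbers the differences were -3.25 and -4.89. Its close relative Abcb1a had overlapping signals of 85.6 and 44.2, and 106.2 and 36.4. Of the other exporters, Abcc5 was higher on both resistant arrays by its brightest probe set, with 636.1 and 520.8 against 785.6 and 693.7 (log2 fold change 0.36 ± 0.199 SE; limma, adjusted p = 0.764). Its 6 tested probe sets disagreed: their log2 fold changes ran from -0.14 to 0.88 (adjusted p = 0.451 for the highest), with 4 above 0 and 2 below. In all 4 genes of this list could be tested, with a median of -0.01.

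Among the 5 tested genes of the receptor complex list, which also held relatives of Arnt, none passed. At an unadjusted p under 0.05 in limma there was 1, Arntl, against 7.51% of all tested probe sets. The median of the 5 was 0.10. Arntl, a relative of Arnt that drives the circadian clock, was lower, with 290.8 and 214.5 in original cells and 185.2 and 131.1 in resistant cells (-0.67 ± 0.295 SE; limma, adjusted p = 0.649). The coactivator gene Ncoa1 was higher, with 200.6 and 182.7 against 288 and 209.1 (0.35 ± 0.27 SE; limma, adjusted p = 0.87), though its other tested probe set overlapped between the groups (0.12). Hsp90aa1, a chaperone of the receptor, overlapped between the groups at 7610.6 to 8991.9.

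Only 2 other induced genes could be tested, and neither passed. Xdh, the xanthine oxidoreductase gene, was lower, with 82.7 and 171.7 in original cells and 66.8 and 30.5 in resistant cells (-1.34 ± 0.497 SE; limma, adjusted p = 0.556), and most of its difference lay in replicate number 2 (-2.38, against -0.30 in number 1). Nfe2l2, the NRF2 gene of the antioxidant response, was slightly higher, with 1817.7 and 2016.4 against 2395.4 and 2057.1 (0.21 ± 0.17 SE; limma, adjusted p = 0.88). Nearly all of its difference came from replicate number 1 (0.40, against 0.03 in number 2). Nqo1, a quinone reductase under both regulators, was under the filter at 37.4 and 27.3, and 26.6 and 9.3, as was Cyp1a2 at 2.5 to 13.8.

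Of the conjugating enzymes 8 could be tested and none passed, with 0 at an unadjusted p under 0.05 in limma (7.51% of all tested probe sets) and a median of 0.13. The acetyltransferase gene Nat2 was higher on both resistant arrays, with 329.3 and 276.3 against 461.6 and 363.5 (0.44 ± 0.234 SE; limma, adjusted p = 0.748). Ugdh, which makes the glucuronic acid donor, was lower, with 2527.3 and 2636.4 against 1902.2 and 2452.1 (-0.26 ± 0.179 SE; limma, adjusted p = 0.84). Of the SLCO transporters apart from Slco2a1, 5 had a probe set and only Slco3a1 could be tested. By its brightest probe set it overlapped between the groups, with 519.7 and 307.1 in original cells and 427.8 and 531.5 in resistant cells (log2 fold change 0.25). Of its other tested probe sets, 1 was higher on both resistant arrays, with 322.8 and 268.5 against 551.8 and 343.6 (0.56 ± 0.267 SE; limma, adjusted p = 0.701), and 1 overlapped (0.06).

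**Figure D4:**
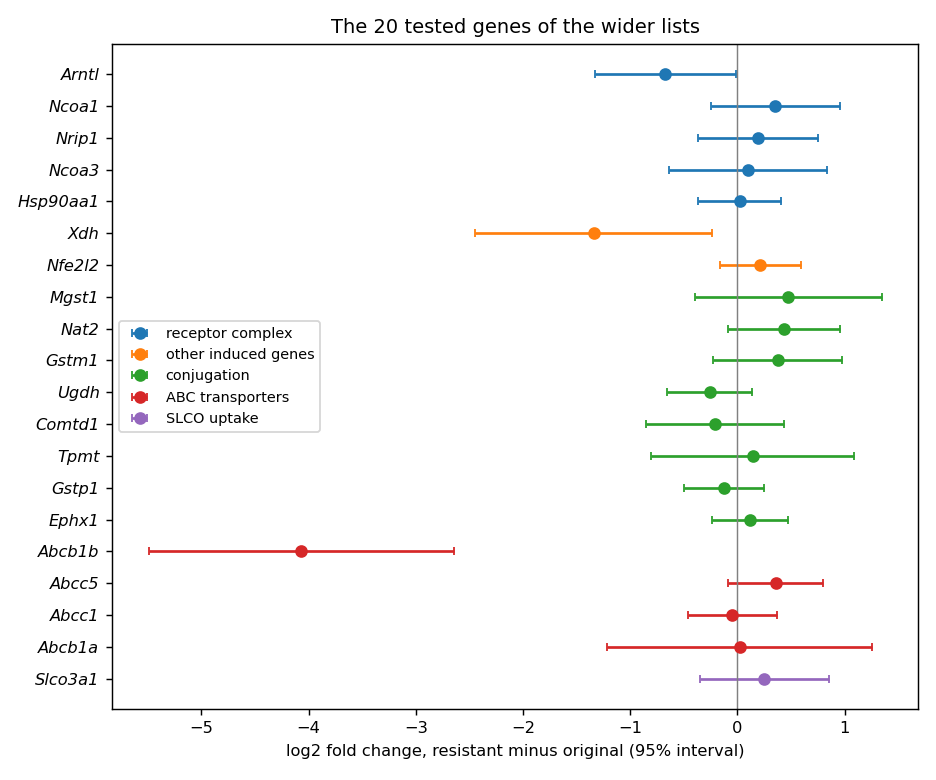
Log2 fold change (resistant minus original, on log2(signal + 3)) of the 20 tested genes of the 5 wider lists, coloured by list, with points for the limma estimate and bars for its 95% confidence interval. Abcb1b stands apart at -4.07, and the other 19 lie between -1.34 and 0.48.

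Cyp1b1 had the smallest unadjusted p of the 9 genes, so its brighter probe set was used to look for genes of like pattern. The measure was the root mean square distance between log2 signals, each centred on its own mean over the 4 arrays. The closest were Tinagl1, a matrix glycoprotein gene (distance 0.0472, signals 1180 and 1150.2, and 603.9 and 523.6), the collagen gene Col5a3 (0.0636, with 2024.9 and 1997.9, and 1023.7 and 923.3) and Ddt, which encodes a relative of the cytokine MIF (0.0704, with 598.7 and 635.6, and 325.8 and 287.1). Over only 4 arrays many genes can share such a pattern. Genes chosen by this distance have fold changes near that of Cyp1b1 by the choice itself, so their tests are not separate evidence. Col5a3 passed the test over all probe sets (log2 fold change -1.05, limma adjusted p = 0.0472), while Tinagl1 (adjusted p = 0.065) and Ddt (adjusted p = 0.125) did not. The call of Col5a3 ended without the second original array (adjusted p = 0.0504), and Tinagl1 passed without the first original array (0.0393) or the first resistant one (0.0364).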

How the data were processed

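The authors deposited MAS5 signal intensities on a linear scale, 1 per probe set and array, with MAS5 named in the submitters' processing notes and its version not given in the sources used here. Detection calls were not used here. Signals ran from 0.1 to 25919.2, and precision is limited by the number of arrays. Gene names came from the platform annotation, which gave 1 symbol to 20380 probe sets, several to 691 and none to 1555; of the first, 20351 matched RefSeq's gene table by identifier. Probe sets with more than 1 symbol were not named.

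Each array was scaled to 1 shared trimmed mean (2% removed at either end, 64 controls left out), and log2(signal + 3) was taken, 3 being the rounded 10th percentile of signals. Fold changes on this scale understate the change of dim genes. Probe sets with a mean signal under the 40th percentile (51.9) were left out, and 13576 were tested. The difference of resistant minus original was fitted with limma 3.58.1 under R 4.3.3 (eBayes with a mean-variance trend), two-sided, with Benjamini-Hochberg adjustment over all of them at 0.05. The procedure was also run on simulated data with independent noise on each array, so that run does not bear on deviations shared by arrays of the same number. The genes named are the 9, each listed gene that passed, the 2 per list with the largest difference among those whose groups did not overlap, and the 3 nearest patterns; Abcb1a, Hsp90aa1, Nqo1, Cyp1a2, Slco3a1 and the cell type markers were named after their values were seen. The members and lists were chosen with earlier results of these data known. Alternatives changed the pseudocount, filter, normalisation, variance model, replicate block and arrays used.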

Additional observations from a re-analysis of the deposited data

How the results depend on the processing

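The count of 0 passing probe sets of the 9 genes stayed at 0 with pseudocounts of 1 and 64, without a filter, with a filter at the 60th percentile, with quantile normalisation, without a variance trend, and with a filter on the mean log2 signal, which was chosen after seeing the data. It ranged from 0 to 1 when each array was left out in turn, where the lone array was assumed to vary like the other group. At an unadjusted p under 0.05 limma gave 3 to 7 of these probe sets over the settings. The 3 were among 9 kept with the filter at the 60th percentile, where 730 of all 9051 tested probe sets were under 0.05. The 7 were among 13 with the replicate number as a block, where 2143 of all 13576 were. With the replicate number as a block 4 passed, both tested probe sets of Cyp1b1 (adjusted p = 7.26e-06 and 2.11e-06) and 1420913_at and 1450032_at of Slco2a1 (adjusted p = 0.000241 and 0.00243), and 740 of all tested probe sets passed in that fit, among them Xdh (adjusted p = 0.0117), Tinagl1 and Ddt. No label says that the number pairs the arrays; deviations from the group means correlated at 0.35 over tested probe sets between arrays of the same number. It has 1 residual degree of freedom, and its prior degrees of freedom were estimated as infinite. Over all tested probe sets 31 passed, against 5 without a filter, 11 with a filter at the 60th percentile, 8 with quantile normalisation, 5 without a variance trend, 23 with a filter on the mean log2 signal, and 164 without original 1, 77 without original 2, 65 without resistant 1 and 108 without resistant 2. The sign turned for Tiparp 1426721_s_at (0.096 without original 2, 0.042 without resistant 1), Tiparp 1452160_at (0.075 and 0.016 in the same settings) and Aldh3a1 (0.089 without original 1, 0.16 without resistant 2), and the cause was not tested. With single arrays left out these ran from -0.44 to 0.096, from -0.65 to 0.075 and from -0.75 to 0.16. The call of Col5a3 also ended without a filter, with a filter at the 60th percentile, with quantile normalisation and without a variance trend (adjusted p = 0.052 to 0.285). That of Col3a1 ended in the same settings and with a filter on the mean log2 signal. Over all settings the log2 fold change of Cyp1b1 1416612_at ran from -1.25 to -0.94 (adjusted p up to 0.312), that of Cyp1b1 1416613_at from -1.78 to -1.10, and that of Slco2a1 1420913_at from -1.07 to -0.52. Dim signals limit Ahrr and Cyp1a1, which could not be measured here.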
